A study of Caenorhabditis elegans with 15 samples.

Results

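The lysozyme genes lys-1 to lys-10 of Caenorhabditis elegans were followed across 5 groups of worms, exposures and their controls. All 10 genes were found on the array by their annotated symbol, each with 1 probe set of its own, among 22548 probe sets that are not controls. One further probe set is annotated to both lys-5 and lys-6 and is given separately, since its signal cannot be assigned to either gene. Of the 10 genes, 7 (lys-1, lys-2, lys-4, lys-6, lys-7, lys-8 and lys-10) reached the level used as a filter, the 40th percentile of mean log2 signals (57.9 on the linear scale), and were tested among 13529 probe sets, as was the shared probe set. The other 3, lys-3, lys-5 and lys-9, lay below that level and are described by their signals. The probe sets of lys-2, lys-3, lys-4, lys-6 and lys-7 and the shared one carry the name ending by which the array's maker marks probes that can match more than 1 transcript.

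Lysozymes are enzymes that cut peptidoglycan, the mesh of the bacterial cell wall. Worms live on bacteria, and in the intestine such enzymes serve both digestion and defence. The lys genes encode lysozymes of a type otherwise known from protists, while the ilys genes of the same animal encode the invertebrate type. Several lys genes are known for higher expression on pathogenic bacteria and for control by the p38 kinase, insulin and TGF-beta signalling routes.

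RNA came from whole wild-type N2 worms that were reared at 20 °C on agar with OP50, an Escherichia coli strain used as food, and collected on day 1 of adulthood after exposure from the start of life. There were 5 groups of 3 arrays, 1 for each biological replicate, and all groups shared strain, food, temperature and age. The first control received water and the second Z-medium, the growth medium that serves as the control of the cyanobacterial culture. The lake exposures were to Lake Stößensee filtrates from August and from October, both at 200% of the original content of AOBr, the measure by which samples were dosed. The last was to a filtrate of a Microcystis aeruginosa batch culture at 40% of its original content. It is not stated whether the controls went through the same filtration and lyophilisation as the exposures, or whether replicates shared a batch. Because whole animals were extracted, fewer cells of a type and less RNA per cell cannot be told apart.

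Arrays of 1 group correlated at 0.955 to 0.967 across log2 signals, and median signals ran from 99.2 to 113. Arrays of replicate 1 stood apart from those of replicates 2 and 3: 2451 of 13529 probe sets (18.1%) differed between them by limma with group as a term. Among the 7 tested lysozyme genes 0 did (2 with an unadjusted p under 0.05, lys-1 and lys-7, beside 31.3% of all). The log2 difference of replicate 1 from the others was 0.14 ± 0.05 (SE) for lys-1 (limma adjusted p = 0.0741) and -0.16 ± 0.05 for lys-7 (limma adjusted p = 0.0541), and it lay between -0.26 and 0.07 for the other 5. Markers of all the tissues listed were measured, and the intestinal list, the tissue in which lysozyme genes are best known, had all 10 of its genes above the filter.

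The filtrate of the Microcystis culture was set against Z-medium, the control of its growth medium. The dose of the Z-medium control is not given, so it is not known whether both groups received the same amount of medium. A difference in medium content was not tested and cannot be told apart from an effect of the filtrate. Of the 7 tested lysozyme genes, lys-2, lys-4 and lys-6 fell, 0 rose and 4 did not pass, where 1.19% of all tested probe sets passed as lower and 1.54% in either direction. All 7 had a negative log2 change, from -1.06 to -0.16 with a median of -0.55, beside a median of 0.00 and 49.2% negative over all tested probe sets. The 3 culture arrays lay wholly below the 3 Z-medium arrays for 5 of the 7 genes, as they did for 11.3% of all tested probe sets. For 4 of the 7 (lys-2, lys-4, lys-6 and lys-7) they lay below all 12 other arrays, as they did for 3.61%.

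**Figure D1:**
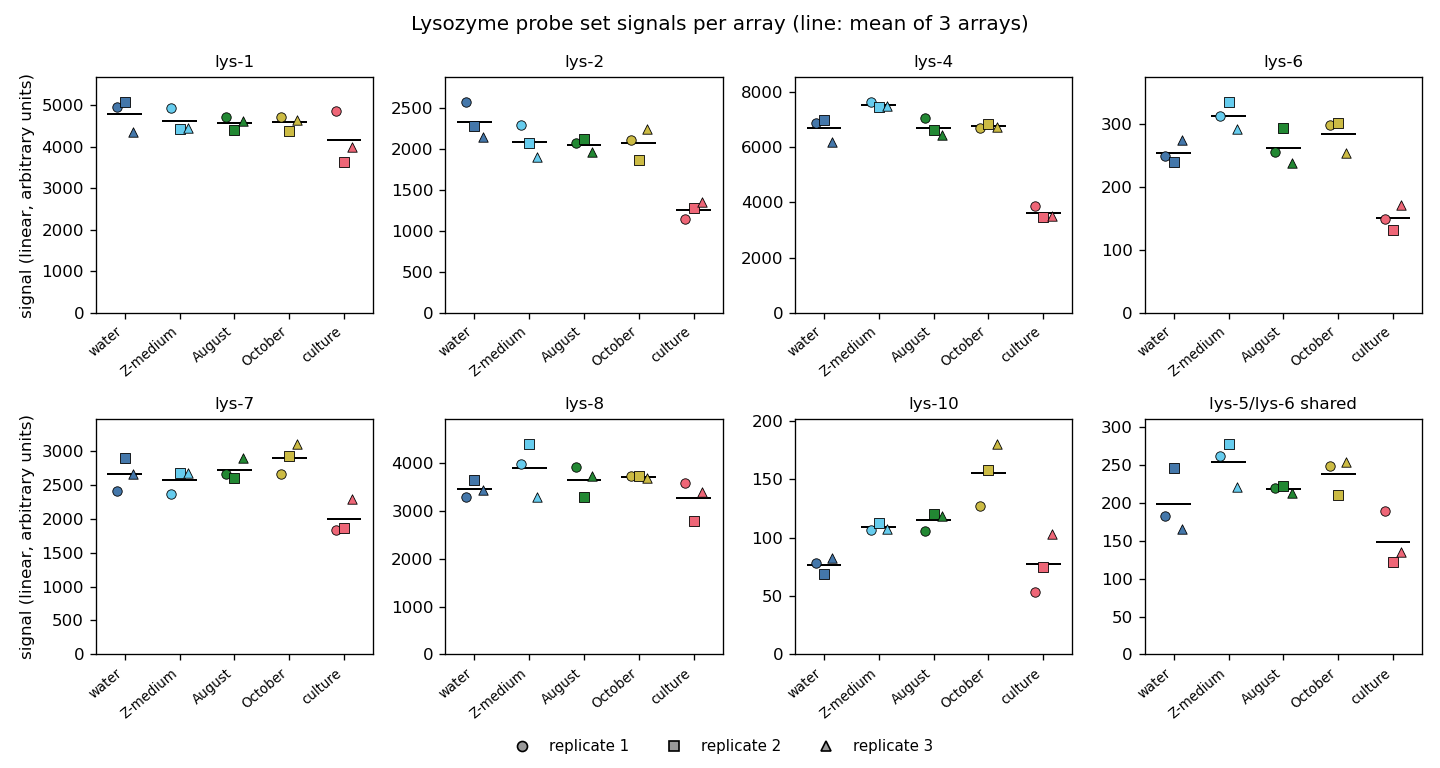
Linear probe set signal (arbitrary units, axis from 0) of the 7 tested lysozyme genes and of the probe set shared by lys-5 and lys-6, by group; each symbol is 1 array, its shape the replicate, and each line the mean of 3 arrays. The culture arrays of lys-4 (3456 to 3873) lie below all 12 others (6194 to 7616), while those of lys-1 and lys-8 overlap the rest.

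The gene lys-4 lies next to lys-5 and lys-6 on chromosome IV, in an unbroken row of 3 lysozyme genes by the RefSeq annotation. Its signal was 7616, 7453 and 7474 in Z-medium and 3873, 3456 and 3509 in the culture. It was 6882, 6967 and 6194 in water, 7049, 6628 and 6436 in August and 6708, 6846 and 6717 in October. The 9 water and lake arrays thus shared 1 range, Z-medium lay above it without overlap, and the culture lay far below. In the culture lys-4 was left at 48.0% of its Z-medium level (95% interval 43.5% to 53.0%; log2 change -1.06 ± 0.07, SE; limma adjusted p = 2.13e-07), which was rank 5 by p among all tested probe sets.

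For lys-6 the signal was 314, 335 and 293 in Z-medium and 149, 131 and 172 in the culture. Water gave 249, 240 and 275, August 256, 295 and 239, and October 299, 302 and 255. Only the culture arrays were set off from the others, and the order Z-medium, October, August, water held no further gap between neighbouring groups. The gene fell to 47.8% of its Z-medium level (95% interval 39.3% to 58.3%; log2 change -1.06 ± 0.13; limma adjusted p = 4.53e-04).

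The probe set shared by lys-5 and lys-6 read 262, 278 and 221 in Z-medium and 189, 122 and 136 in the culture. Those arrays did not overlap, but the culture overlapped the water arrays, at 183, 246 and 166. Its log2 change was -0.79 ± 0.18 (limma adjusted p = 0.0401), and the call ended with any of 5 of the 6 arrays left out, the exception being culture replicate 1, with the adjusted p reaching 0.167 without culture replicate 2. Against water in place of Z-medium its log2 change was -0.41 (limma adjusted p = 0.269).

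The gene lys-2, whose expression is known to depend on the p38 kinase PMK-1, lies between lys-1 and lys-3 in a row of lysozyme genes on chromosome V. Its signal was 2288, 2068 and 1897 in Z-medium and 1141, 1275 and 1349 in the culture. In water it was 2566, 2284 and 2138, in August 2066, 2121 and 1958, and in October 2112, 1859 and 2246. Every culture array lay below every other array, and water had the highest mean. The gene fell to 60.2% of Z-medium (95% interval 52.1% to 69.7%; log2 change -0.73 ± 0.10; limma adjusted p = 8.71e-04). Its neighbour lys-1, known for a rise during infection with Serratia marcescens, had a log2 change of -0.16 ± 0.09 (limma adjusted p = 0.442). The lys-1 signals of 4849, 3644 and 3983 in the culture overlapped 4934, 4434 and 4460 in Z-medium. The interval for lys-1 ran from 78.0% to 103% of the control.

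The genes lys-7 and lys-8 did not pass on the deposited scale with groups alone in the model. For lys-7, a target of the transcription factor DAF-16 with a known part in resistance to several pathogens, the signal was 2369, 2672 and 2670 in Z-medium and 1829, 1860 and 2296 in the culture. The arrays did not overlap, and the log2 change was -0.37 ± 0.10 (limma adjusted p = 0.0809; unadjusted p = 0.00205). It passed when culture replicate 3, the highest of the 3, was left out (limma adjusted p = 0.0368), under quantile normalization (0.0475), with a replicate block (0.00543) and with a term for replicate 1 (0.00698). Under median scaling of the arrays the change was -0.26. For lys-8, a gene known to respond to the TGF-beta ligand DBL-1, signals of 3596, 2786 and 3408 overlapped the 3986, 4402 and 3297 of Z-medium (log2 change -0.25 ± 0.11; limma adjusted p = 0.285). Without culture replicate 2 the change of lys-8 was -0.14, and without Z-medium replicate 2 it was -0.16.

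**Figure D2:**
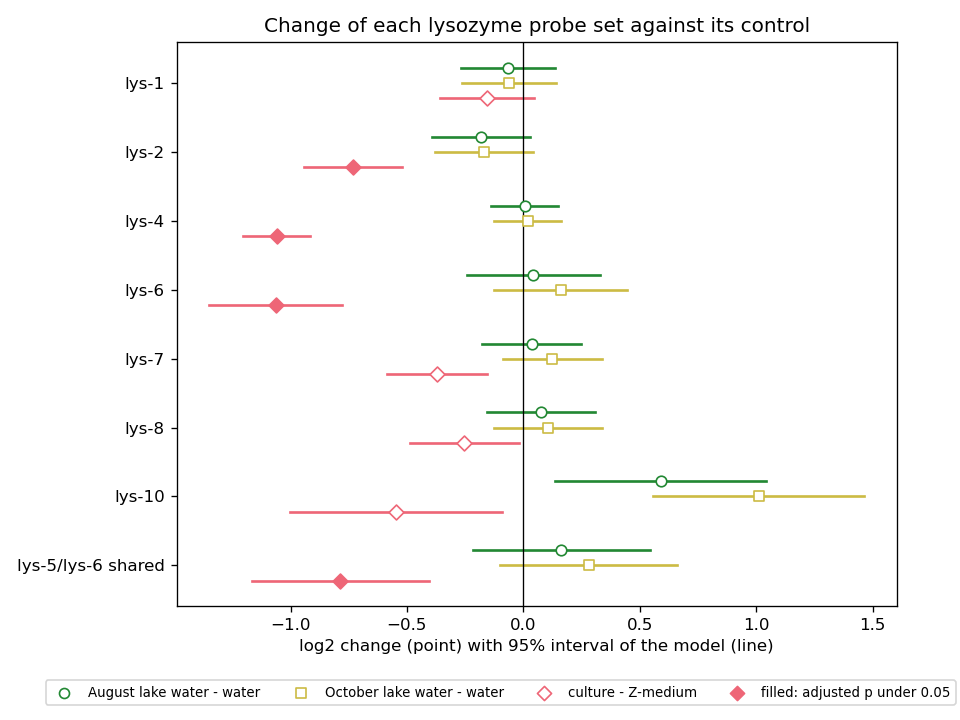
Log2 change of each tested lysozyme probe set in the 3 exposures against their own controls; points are the model's estimates, lines their 95% intervals, and filled points have an adjusted p under 0.05. The culture estimates all lie below 0, while the lake estimates lie near 0 except for lys-10, at 0.59 in August and 1.01 in October.

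The fall of 3 genes did not rest on a single array. With each of the 6 arrays of the comparison left out in turn, lys-2, lys-4 and lys-6 passed in all 6 fits, and the highest adjusted p by limma was 0.00685 for lys-2, 4.40e-06 for lys-4 and 0.00490 for lys-6. Without the replicate 1 arrays of every group the count was again 3. Set against water, a control chosen after the data were seen, the same 3 passed, with log2 changes of -0.89 for lys-2, -0.89 for lys-4 and -0.76 for lys-6, where 1.47% of all probe sets passed in either direction.

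**Figure D3:**
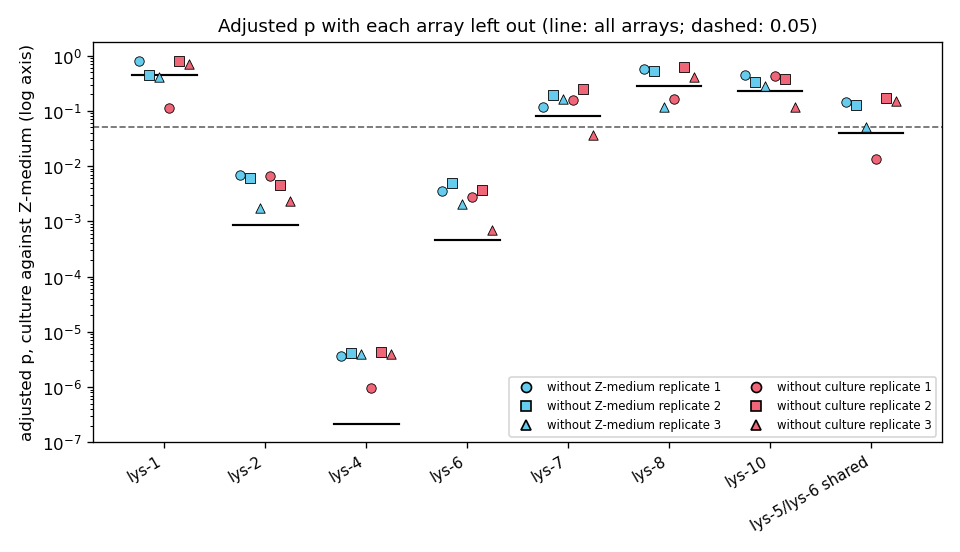
Adjusted p of the culture against Z-medium for each lysozyme probe set (log axis), over all arrays (line) and with 1 array left out (symbols, by group colour and replicate shape); the dashed line marks 0.05. For lys-2, lys-4 and lys-6 all symbols lie below the dashed line, for lys-7 and the probe set shared by lys-5 and lys-6 1 symbol does.

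The August filtrate was compared with water to find transcripts that respond to the lake sample, and in it 0 of the 7 genes passed (1 with an unadjusted p under 0.05, lys-10), where 0.00739% of all probe sets did and 3.05% had an unadjusted p under 0.05. For lys-4 the August level was 100.4% of water (95% interval 90.9% to 111%), for lys-6 103% (84.5% to 125%) and for lys-2 88.1% (76.2% to 102%). A change of the size seen in the culture lay outside the interval for each of these 3 genes. The August arrays lay wholly below the water arrays for lys-2 and wholly above them for lys-10, 2 of the 7 genes, where 7.19% of all probe sets had no overlap in either direction. The values of lys-1, lys-7 and lys-8 were -0.07, 0.03 and 0.08 on the log2 scale.

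In the October filtrate, compared with the same water arrays, 0 of the 7 passed (1 with an unadjusted p under 0.05, lys-10), as did 0% of all probe sets, and 2.11% of all had an unadjusted p under 0.05. Levels relative to water were 101% for lys-4 (95% interval 91.7% to 112%), 112% for lys-6 (91.7% to 136%) and 89.0% for lys-2 (76.9% to 103%). For lys-8 the October arrays, at 3736, 3735 and 3696, lay above the water arrays at 3290, 3647 and 3446, with a log2 change of 0.11 ± 0.11. With lys-10, 2 of the 7 genes had no overlap, beside 7.56% of all probe sets. Between October and August directly 0 of the 7 passed (0 with an unadjusted p under 0.05, beside 2.59% of all), where 0.0148% of all probe sets did. Their log2 differences ran from 0.00 for lys-1 to 0.42 for lys-10, the 1 gene of 7 whose arrays did not overlap, beside 7.55% of all probe sets.

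Levels of lys-10, a gene on chromosome IV apart from the row of lys-4 to lys-6, followed another order. Its signal was 78.2, 68.5 and 82.5 in water, 106, 112 and 108 in Z-medium, 106, 120 and 118.7 in August and 127, 158 and 180 in October. The culture gave 53.4, 74.9 and 103. Z-medium, August and October each lay wholly above water, October lay above August, and the culture overlapped water. The log2 change was 1.01 ± 0.21 in October (limma adjusted p = 0.851; unadjusted p = 2.52e-04, rank 4 of 13529), 0.59 ± 0.21 in August (limma adjusted p = 1.00) and 0.51 ± 0.21 in Z-medium (limma adjusted p = 1.00). These 3 values share the water arrays and none passed. In the culture the change was -0.55 ± 0.21 against Z-medium (limma adjusted p = 0.234) and -0.03 ± 0.21 against water. Against Z-medium it was -0.31 without culture replicate 1 and -0.78 without culture replicate 3. The mean level of lys-10 was at the 49.8th percentile of the array, and its SE of 0.21 was the largest of the 7 genes. That SE rests on 1 spread shared by all 5 groups, while the SD of the log2 signal ran from 0.04 in Z-medium to 0.47 in the culture. It therefore does not give the spread of the groups in each comparison.

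Z-medium and water, the 2 controls, were compared to see whether the medium alone moved these genes. Of the 7, 0 passed (3 with an unadjusted p under 0.05, beside 2.34% of all), where 0.0222% of all probe sets did. These 3, lys-4 (log2 change 0.17 ± 0.07), lys-6 (0.30 ± 0.13) and lys-10 (0.51 ± 0.21), had Z-medium arrays wholly above the water arrays, where 6.72% of all probe sets had no overlap in either direction. The falls of lys-4 and lys-6 in the culture are accordingly larger against Z-medium than against water, and for lys-2, at -0.16 ± 0.10 in Z-medium, the reverse holds.

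The effect of the culture against Z-medium was then set against the mean effect of both lake samples against water, in a test of the difference itself. The effects share no control, so the gap between Z-medium and water enters the difference. That gap was 0.17 for lys-4, 0.30 for lys-6, 0.51 for lys-10 and -0.16 for lys-2. Doses were also unlike, at 40% of the original content for the culture and 200% for the lake samples. The test passed for lys-4, with a log2 difference of -1.07 ± 0.09 (limma adjusted p = 1.20e-05), and for lys-6, with -1.17 ± 0.18 (limma adjusted p = 0.00638), where 0.266% of all probe sets passed. The lake effect was 0.01 ± 0.06 for lys-4 and 0.10 ± 0.12 for lys-6. For lys-2 the difference was -0.56 ± 0.13 (limma adjusted p = 0.156), with a lake effect of -0.18 ± 0.09 in the same direction as its fall in the culture. The largest difference in size, that of lys-10 at -1.35 ± 0.28, did not pass (limma adjusted p = 0.0774), though it did without culture replicate 3 (limma adjusted p = 0.0151). For lys-7, lys-8 and lys-1 the differences were -0.45, -0.34 and -0.09. With a replicate block lys-2, lys-7 and lys-10 passed as well (limma adjusted p = 0.0238, 0.0205 and 0.00600), and likewise with a term for replicate 1 (limma adjusted p = 0.0225, 0.0284 and 0.00669). Both calls held with each of the 15 arrays left out, the highest adjusted p by limma being 9.97e-05 for lys-4 and 0.0327 for lys-6. That of lys-6 ended without the 5 replicate 1 arrays (limma adjusted p = 0.0572; log2 difference -1.05).

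**Figure D4:**
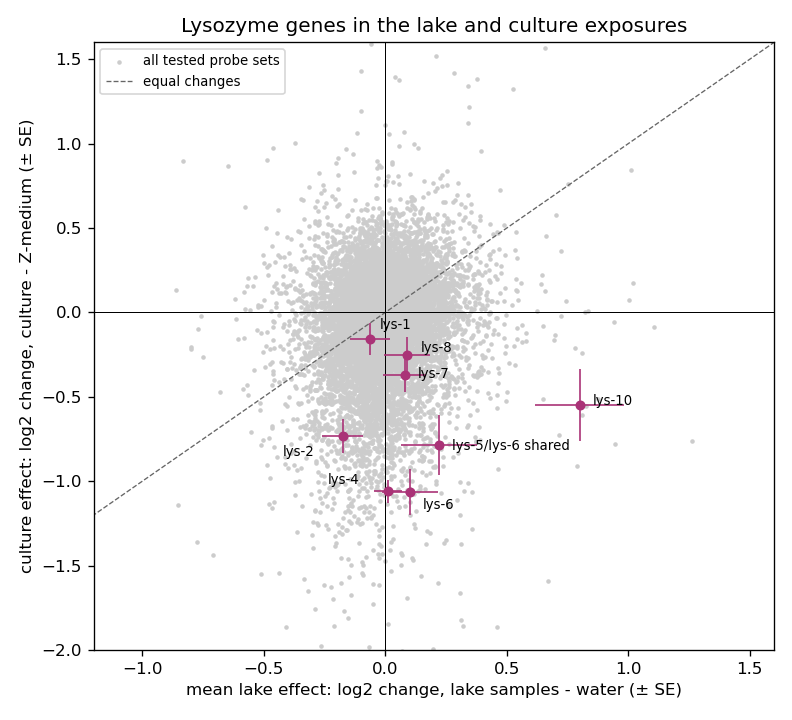
Culture effect (log2 change against Z-medium) plotted against the mean lake effect (log2 change against water) for the lysozyme probe sets with SE bars, over all tested probe sets in grey, 10 of which lie outside the plotted range; the dashed line marks equal changes. All lysozyme points lie below the line, with lys-4 and lys-6 near a lake effect of 0 and lys-10 at a lake effect of 0.80.

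The genes lys-3, lys-5 and lys-9 stayed below the filter. For lys-3, beside lys-2 on chromosome V, single arrays ran from 19.5 to 55.3, with group means of 33.2 ± 5.69 in water, 35.1 ± 6.14 in Z-medium, 25.1 ± 4.11 in August, 42.0 ± 12.5 in October and 31.9 ± 11.1 in the culture (SD, n = 3). For lys-5, whose place is between lys-4 and lys-6, single arrays ran from 37.4 to 72.6 and straddled the filter level. Its group means were 46.6 ± 12.3 in water, 52.4 ± 7.61 in Z-medium, 63.4 ± 8.03 in August, 61.5 ± 18.4 in October and 46.6 ± 7.24 in the culture. For lys-9, on chromosome I, the highest array read 2.595, and the mean lay at the 0.7th percentile of the array. In all 3 genes each group overlapped its neighbour in the order of means. With no filter, when all 10 genes were tested, 0 of these 3 passed in any of the 6 comparisons. Of all 22548 probe sets, the most to pass in any of them was 157, in the culture against Z-medium.

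**Figure D5:**
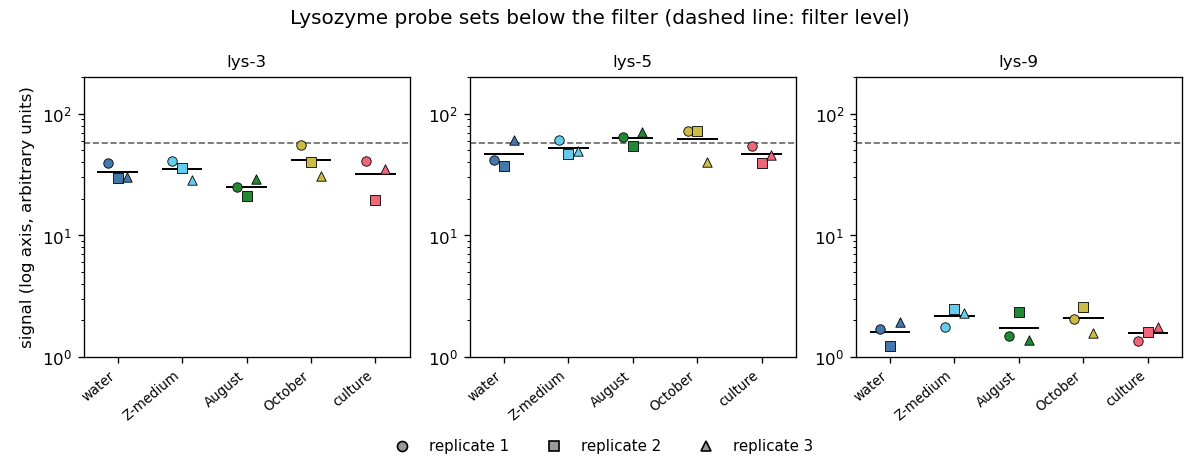
Signal (log axis, arbitrary units) of the 3 lysozyme genes below the filter, by group; symbols are arrays, lines the means of 3 arrays, and the dashed line the filter level of 57.9. Signals of lys-3 stay below the line, those of lys-5 lie on both sides of it, and those of lys-9 lie at 1.23 to 2.595.

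Spread between arrays of 1 group differed by group. Over the 7 tested genes the coefficient of variation of the signal had a median of 7.99% in water, 6.66% in Z-medium, 5.75% in August, 7.74% in October and 13.1% in the culture. The culture value was highest for lys-10 (32.1%) and lowest for lys-4 (6.30%).

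Most like the falling genes, by Pearson's r of the log2 signal over 15 arrays, were the C-type lectin gene clec-47 (0.97), the intermediate filament gene ifd-2 (0.97) and the cathepsin B-like protease gene cpr-4 (0.96) for lys-4. For lys-6 they were cpr-1, another cathepsin B-like gene (0.96), Y39B6A.1 (0.94) and lys-4 itself (0.93). For lys-2 they were C17H12.8 (0.96), warf-1 (0.95) and ZK228.4 (0.95). These values describe the gap between the culture arrays and the rest in large part: over the 12 other arrays r lay between 0.45 (ifd-2 with lys-4) and 0.80 (cpr-1 with lys-6).

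Of the invertebrate-type lysozymes, all 6 genes were on the array and 2 reached the filter, with 0 passing in the culture, August or October (1 with an unadjusted p under 0.05, ilys-4 in the culture). Over all probe sets 1.54%, 0.00739% and 0% passed in these comparisons, and 15.2%, 3.05% and 2.11% had an unadjusted p under 0.05. With 2 genes tested, 0 passing lies near these shares. For ilys-5 the culture change on its 3 probe sets was 0.04, 0.07 and 0.14 on the log2 scale. For ilys-4 it was -0.56 ± 0.21 (limma adjusted p = 0.228), and this gene was higher in replicate 1 by 0.47 ± 0.08 (limma adjusted p = 7.81e-04). The genes ilys-1, ilys-2, ilys-3 and ilys-6 lay below the filter.

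Of 25 listed genes for immune signalling and transcription factors, among them the p38 pathway, the insulin pathway, the DBL-1 pathway and the intestinal GATA factor elt-2, 22 were tested and 0 passed in the culture (6 with an unadjusted p under 0.05, beside 15.2% of all probe sets), with 8 positive and 14 negative and a median log2 change of -0.12. The values were 0.05 for pmk-1, the p38 kinase itself, -0.09 for daf-16, -0.14 for elt-2 and -0.16 for dbl-1. For pqm-1, a transcription factor that works opposite DAF-16 in the nucleus, the change was -0.49 (limma adjusted p = 0.0956). In August and October 0 passed as well. Over all probe sets 1.54% passed in the culture, 0.00739% in August and 0% in October.

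Levels of tissue markers stood beside these changes as follows. Of 10 intestinal marker genes 2 fell in the culture and 8 did not pass (3 of the 10 had an unadjusted p under 0.05), with 8 negative and a median log2 change of -0.17. Over all probe sets 1.19% fell, 15.2% had an unadjusted p under 0.05 and 49.2% were negative. The 2 that fell were mtl-2, a metallothionein (-0.96 ± 0.08; limma adjusted p = 5.10e-06), and ifb-2, an intestinal intermediate filament (-0.56 ± 0.13; limma adjusted p = 0.0492). For mtl-2, Z-medium itself lay above water by 2.03, and the culture above water by 1.08. Of the rest of the list, the gut genes ges-1, act-5 and vha-6 had values of -0.25, -0.20 and -0.14, while 2 genes were positive, the highest at 0.14. The summed signal of the list was 70651 to 77846 in Z-medium and 61172 to 78064 in the culture, overlapping. The summed signal of the pharynx list did not overlap, at 3427 to 4364 in Z-medium and 2644 to 3286 in the culture, where water gave 3432 to 4545. That of the sperm list overlapped, at 4969 to 9205 and 3245 to 6493. Sperm markers, with 4 of 4 tested genes negative and 0 passing (1 with an unadjusted p under 0.05), had a median of -0.59, and pharynx markers, with 4 of 4 negative and 0 passing (2 with an unadjusted p under 0.05), one of -0.37. Muscle, neuron, hypodermis and germline medians lay between -0.21 and 0.08. In replicate 1 of the groups, 5 of the 10 intestinal, 4 of 4 pharynx, 4 of 4 sperm, 2 of 5 muscle and 2 of 6 hypodermis markers were higher than in replicates 2 and 3. Another 2 hypodermis markers were lower, and 0 of 6 neuron and 0 of 5 germline markers passed. Over all probe sets 1455 of 13529 were higher, and 18.1% differed in either direction. The part of tissue makeup in the lysozyme values was not tested.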

How the data were processed

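The authors deposited 1 linear signal intensity per probe set and array. The submitters' processing notes name MAS5 and, as software, Affymetrix Expression Console 1.2.0.20. From the values, arrays share a mean after a 2% trim at each end (500.123 to 500.137). The build and detection calls are not given in the sources used here. Sequences were not analysed here.

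Of 22625 probe sets, 77 controls and those with a mean log2 signal below 5.86 were left out, which left 13529. All 15 arrays entered 1 linear model of the 5 groups (limma 3.58.1, R 4.3.3, eBayes with trend=TRUE; residual df 10), adjusted by Benjamini-Hochberg over all probe sets tested, with a threshold of 0.05. Errors of log2 changes are SE. The replicate 1 term was fitted in a second model. Replicates are labelled biological, and 3 arrays a group limit the precision. In simulated data with 200 probe sets of 13529 changed by 1 log2 unit in the culture, 164 were called, with 8 false calls. Arrays were simulated as independent, with the same spread in every group and no replicate 1 difference. These rates may therefore not hold for the real arrays. Symbols came from the array annotation (20766 probe sets with 1, 887 with several, 895 with none), gene order from RefSeq (WBcel235). The members, lists and the rule for likeness (the 3 highest r per falling gene) were chosen with earlier results of these data known. Same-numbered arrays deviated together (every r over 0.1) for August against water, October against August and Z-medium against water, where a block changed 0 lysozyme calls. They did not for October against water or the culture against Z-medium. Alternatives covered scaling, offset, filter, prior, the arrays fitted and replicate terms. The values of 1 listed signalling gene are not reported here.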

Additional observations from a re-analysis of the deposited data

Results flagged for a closer look

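For lys-4 and lys-6 the effect of the culture against Z-medium differed from the mean effect of the lake samples against water by a test of the difference itself. The gap between these controls is part of that difference. The log2 difference was -1.07 for lys-4 (limma adjusted p = 1.20e-05) and -1.17 for lys-6 (limma adjusted p = 0.00638). Without the 5 replicate 1 arrays the call of lys-6 ended (limma adjusted p = 0.0572) and that of lys-4 held. All 3 culture arrays lay below all 3 Z-medium arrays for both genes, as they did for 11.3% of all tested probe sets. The lake arrays overlapped the water arrays, where 7.19% of all probe sets in August and 7.56% in October had no overlap. The same arrays gave the test, so their order adds no separate support.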

How the results depend on the processing

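Counts of lysozyme genes past the test stayed at 0 for August, October, October against August and Z-medium against water in all 12 other settings of each and with each array left out. Among the settings counted here, the brightest probe set of each gene alone repeats the main fit, as each gene has 1 probe set. It could not give another count. For the culture against Z-medium the count was 3 in 10 other settings, among them that repeat and water as the control, which is another comparison. It was 4, with lys-7 added, under quantile normalization, with replicate number as a block (the replicate block) and with a term for replicate 1. It was 3 to 4 with 1 array left out. For the difference between culture and lake effects the count of 2 became 5 with the replicate block and 5 with a term for replicate 1 (lys-2, lys-7 and lys-10 added), 1 without the 5 replicate 1 arrays (lys-4), and 2 to 3 with 1 array left out. The numbers did not pair the culture and Z-medium arrays by the rule used. For replicate 1 against replicates 2 and 3 the count of 0 became 1 under median scaling and 1 with a filter at the 60th percentile (lys-7 in both), and was 0 to 1 with 1 array left out. The causes were not tested. Over all probe sets, calls in the culture comparison numbered 209, and 1245 with the replicate block, 1201 with a term for replicate 1, 534 without the replicate 1 arrays, 117 in a fit of its own arrays, 143 without the intensity trend and 157 without a filter. With 1 array left out they numbered 89 to 229. Median scaling moved the median of all probe sets by 0.11 and the lysozyme median from -0.55 to -0.44, and turned no called lysozyme value. It put 62 of 168 calls higher, against 48 of 209. The 60th percentile filter left lys-10 untested. Detection calls were not used here, so signal over background could not be given.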
